A study of Mus musculus with 6 samples.

Results

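The genes described here form the insulin-like growth factor (IGF) system of bone marrow stromal cells: the ligand gene Igf1, the receptor genes Igf1r and Insr, the adaptor gene Irs1, and the binding protein genes Igfbp2 to Igfbp7. They were taken by gene symbol from a table of 23358 rows, and all 10 were found. The libraries are RNA-seq of C57BL/6 mouse marrow mesenchymal stem cells at passage 6 to 12. A group of 3 libraries received a non-targeting siRNA (control), and the other group of 3 a Dia2 siRNA at 50 nM. Dia2 is the product of Diaph3, a formin that nucleates and elongates actin filaments. Both groups had 24 h to adhere in IMDM, an overnight lipid transfection, and 24 h in αMEM until RNA was taken. Only 1 siRNA sequence against Dia2 was used, and separate cultures are not stated for the replicates, so p-values measure only how these libraries scatter, and that scatter may be technical.

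IGF1 is a peptide hormone that is also made locally in bone, where it promotes growth and survival of osteoblast-lineage cells. It signals through the receptor tyrosine kinase encoded by Igf1r, which is closely related to the insulin receptor, and both receptors phosphorylate adaptors such as IRS1 that recruit PI3 kinase and so activate AKT. Most IGF outside the cell is bound by IGF binding proteins, which hold it away from the receptor or carry it there, and proteases such as PAPP-A release it by cutting them.

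Of the set, 6 genes rose with Dia2 siRNA, led among the abundant ones by Igfbp4 (4.60-fold) and Igf1 (3.08-fold). Igf1r rose 1.95-fold and Igfbp7 1.36-fold, and the scarce Igfbp5 and Igfbp2 rose 16.2-fold and 6.14-fold. Igfbp5 and Igfbp2 passed the filter on low counts through the Dia2 group, and their folds rest on few control counts. Irs1 was the 1 gene that fell, by 0.34 on the log2 scale, or 1.27-fold. Insr and Igfbp6 did not pass the test, and Igfbp3 was too scarce to be tested. Passing was common: of 14151 genes tested with edgeR's quasi-likelihood test at a Benjamini-Hochberg adjusted p of 0.05, 59.2% were called, 29.3% higher and 29.9% lower.

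Reference windows of the genes' starts are shown because 2 of the genes that rose, Igfbp2 and Igfbp5, are neighbours in the genome, and because Irs1 moved the other way. RefSeq (GRCm38.p6) gave a window of 250 bases before and 50 bases after a start for 9 of the 10 genes. Motifs searched on both strands were TATAAA (the TATA box), GGGCGG (the GC box bound by Sp1), CACGTG (an E-box) and GTAAACA (a core bound by FOXO factors). Capitals mark exact matches to these motifs, and variants of them were not searched.
Igfbp4, chr11:99040994-99041293, plus strand: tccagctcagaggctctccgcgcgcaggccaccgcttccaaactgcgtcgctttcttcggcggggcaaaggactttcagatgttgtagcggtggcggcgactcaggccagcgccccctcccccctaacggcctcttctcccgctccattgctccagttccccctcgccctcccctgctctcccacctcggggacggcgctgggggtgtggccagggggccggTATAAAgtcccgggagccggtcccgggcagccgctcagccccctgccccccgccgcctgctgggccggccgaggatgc
Igfbp5, chr1:72874816-72875115, minus strand: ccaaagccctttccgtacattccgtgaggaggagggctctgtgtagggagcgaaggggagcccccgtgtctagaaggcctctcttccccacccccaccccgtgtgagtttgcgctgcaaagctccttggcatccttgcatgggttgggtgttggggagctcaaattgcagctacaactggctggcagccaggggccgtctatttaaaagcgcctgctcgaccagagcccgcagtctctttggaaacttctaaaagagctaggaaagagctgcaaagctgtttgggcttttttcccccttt
Igfbp2, chr1:72824230-72824529, plus strand: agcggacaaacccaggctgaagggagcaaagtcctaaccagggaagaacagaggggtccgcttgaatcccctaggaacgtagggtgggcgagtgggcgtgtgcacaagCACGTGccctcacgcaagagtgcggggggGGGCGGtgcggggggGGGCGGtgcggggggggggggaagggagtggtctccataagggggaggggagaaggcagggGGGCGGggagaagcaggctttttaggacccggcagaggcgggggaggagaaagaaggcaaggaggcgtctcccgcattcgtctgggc
Irs1, chr1:82291390-82291689, minus strand: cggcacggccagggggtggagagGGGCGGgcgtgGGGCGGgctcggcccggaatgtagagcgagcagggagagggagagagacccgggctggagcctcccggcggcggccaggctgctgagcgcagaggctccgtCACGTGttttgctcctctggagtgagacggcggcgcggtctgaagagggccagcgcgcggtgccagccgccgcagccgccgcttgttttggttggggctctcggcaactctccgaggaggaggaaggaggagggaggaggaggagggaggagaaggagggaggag
Igfbp4 held TATAAA at bases 223 to 228 of its window, 28 bases ahead of the start, and no GGGCGG. The first of the 2 windows listed for Igfbp2, shown here, held 3 copies of GGGCGG and 1 of CACGTG, Irs1 held 2 and 1, and Igfbp5 held none of the 4 motifs. Among the windows not shown, Igf1r held 2 copies of GGGCGG, Igfbp7 held 4, and Igfbp6 held TATAAA on the opposite strand. Igfbp3 and the other Igfbp2 window held none. Of 32851 windows of this length, 13.6% held TATAAA, 35.7% GGGCGG, 7.15% CACGTG and 3.65% GTAAACA. GC content was 71.3% in the Igfbp4 and Irs1 windows, 67.0% and 56.3% in those of Igfbp2 and Igfbp5, and 52.7% in the median window. The window listed for Igf1 lies inside the span the deposited table gives for that gene, so it is not the region ahead of that first base, and it held none of the motifs.

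The libraries held 70538768 to 110006338 counts each. All counts were even, so 2 counts were read as 1 fragment, and 6 counts (3 fragments, or 0.0534 to 0.0870 CPM) were taken as a detection floor. The ribosomal precursor Rn45s held 11.7% of the counts in control replicate 3 and 10.9% in Dia2 replicate 1, against 6.00% to 7.41% in the other 4 libraries. The targeted gene, listed as Diap3, stood at 80.1 to 84.8 CPM with control and 7.39 to 8.37 CPM with Dia2 siRNA, 10.7-fold lower (edgeR adjusted p = 1.66e-11). CPM here are counts scaled to library size with TMM factors. Of 12 stromal markers, 11 had a mean of at least 1 CPM and Thy1 was at 10 counts or fewer in every library. Bulk RNA cannot separate fewer cells of a type from less RNA per cell.

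Igf1 encodes the ligand. It stood at 13.3, 15.1 and 17.6 CPM in control replicates 1, 2 and 3 and at 49.4, 44.6 and 47.6 CPM in Dia2 replicates 1, 2 and 3. The groups did not overlap, and the lowest Dia2 library was far above the highest control. The mean went from 15.3 ± 2.17 to 47.2 ± 2.41 CPM (SD, n = 3 each). The log2 fold change was 1.62 ± 0.09 (SE; edgeR adjusted p = 3.59e-08). The gene lies on chromosome 10, 87859056 to 87937047 (GRCm38). Igf1 is also transcribed by macrophages, so markers of blood cells were read beside it. Their summed level was 10.8 to 11.8 CPM in the control and 5.08 to 7.24 CPM in the Dia2 libraries. The lower sum came from Cd53 (3.41 to 0.675 CPM), Itgb2 (2.65 to 0.892 CPM) and Cd68 (1.99 to 0.967 CPM). Csf1r, the receptor gene of macrophage growth factor, did not pass, at 2.92 ± 0.624 and 3.00 ± 0.531 CPM (SD, n = 3 each; edgeR adjusted p = 0.877), and Itgam, too low to test, had 0 to 2 counts in the control and 6 to 10 in the Dia2 libraries. The part of macrophage RNA in the Igf1 change was not tested. Of 11 such markers 7 had a mean under 1 CPM, Tyrobp was at 0 in every library, and Ptprc and Adgre1 were at 8 counts or fewer. Stromal markers summed to 2914 to 3215 CPM in the control and 5270 to 5338 CPM in the Dia2 libraries, and 10 of 11 tested were higher, where 29.3% of all tested genes were. Cxcl12 alone went from 815 ± 126 to 2097 ± 72.6 CPM (SD, n = 3 each), the largest part of that rise. Endothelial markers, 8 genes all with a mean under 1 CPM, summed to 2.06 to 2.17 and 1.78 to 2.20 CPM. Among them Kdr fell (1.15 to 0.646 CPM) and Vwf rose (0.716 to 1.13 CPM). Pecam1 and Tek did not pass, and the others were too low to test. The part of the stromal shift in the changes described here was not tested.

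Of the receptor genes, Igf1r rose and Insr did not pass the test. Igf1r stood at 87.8, 87.2 and 88.6 CPM across the controls and at 172, 170 and 173 CPM after Dia2 siRNA. Within each group the values were nearly equal, and the groups were far apart, at means of 87.9 ± 0.714 and 172 ± 1.12 CPM (n = 3 each, SD; log2 fold change 0.97 ± 0.04, SE; edgeR adjusted p = 3.19e-09). Insr stood at 48.9, 51.6 and 54.0 CPM in the control and at 49.9, 50.8 and 51.4 CPM after Dia2 siRNA, where all Dia2 values fell inside the control range. Its log2 fold change was -0.02 ± 0.05 (SE; edgeR adjusted p = 0.743), with a sign that turned under some settings. Per length, the RPKM of Igf1r was 1.28 to 1.40 times that of Insr in the control libraries and 2.62 to 2.69 times in the Dia2 libraries. Igf1r lies on chromosome 7, 67952257 to 68233667, and Insr on chromosome 8, 3150922 to 3279617.

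Irs1, whose product links both receptors to PI3 kinase, was the 1 gene of the set that fell. It stood at 206, 209 and 215 CPM across the controls and at 165, 165 and 166 CPM after Dia2 siRNA. The groups did not overlap, and the shift was small beside those of Igf1 and Igf1r. The mean went from 210 ± 4.45 to 166 ± 0.738 CPM (n = 3 each, SD; log2 fold change -0.34 ± 0.04, SE; edgeR adjusted p = 1.94e-05). A change of this size or larger was common, since 54.6% of the tested genes had a smaller absolute log2 fold change. The gene lies on chromosome 1, 82233105 to 82291439.

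**Figure D1:**
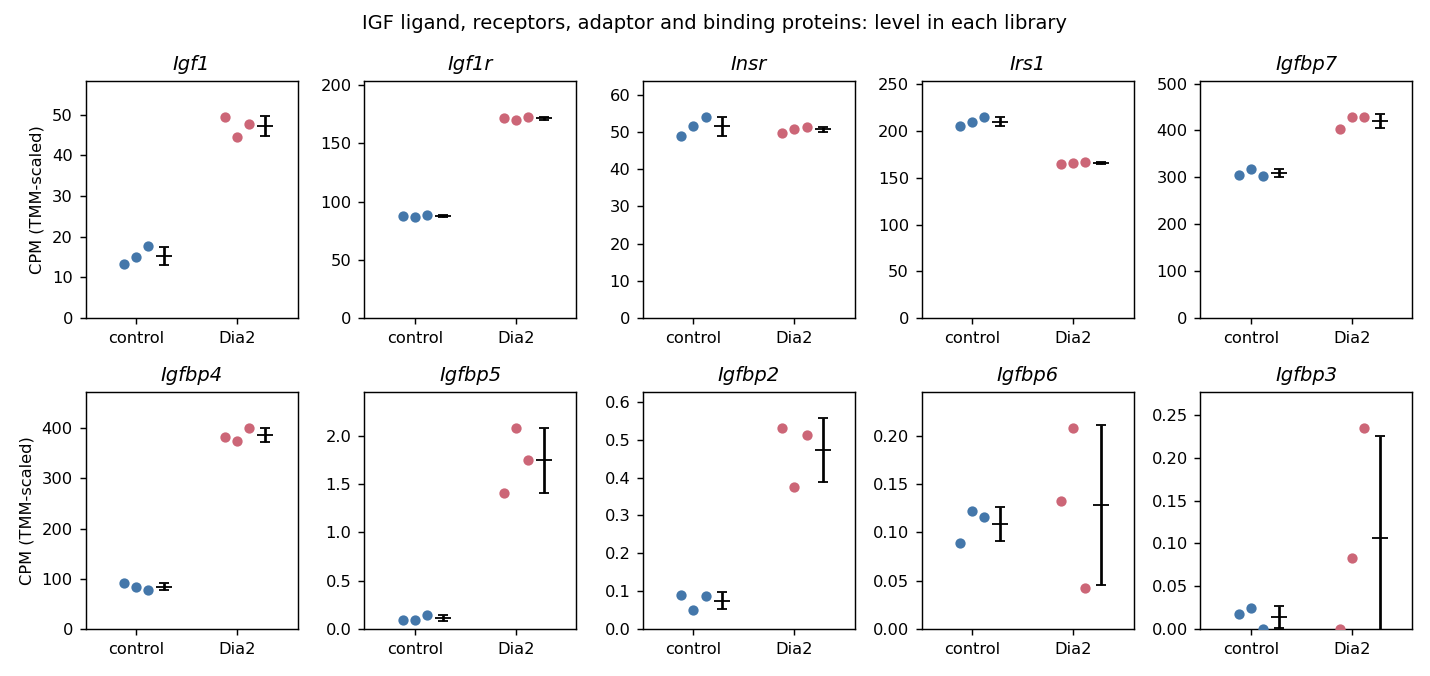
CPM in each library for the 10 genes, one panel per gene with its own axis from 0; points are libraries, and the bar and whiskers to their right are the mean and SD of 3 libraries. The groups are clearly apart for Igf1 (15.3 against 47.2 CPM), Igf1r, Irs1, Igfbp7, Igfbp4, Igfbp5 and Igfbp2, and overlap for Insr, Igfbp6 and Igfbp3, whose lower Dia2 whisker is clipped at 0.

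Igfbp4 and Igfbp7 supplied nearly all binding protein transcripts. Igfbp4 encodes a carrier known as an inhibitor of IGF action in bone. It stood at 91.5, 82.7 and 77.3 CPM across the controls and at 383, 374 and 400 CPM after Dia2 siRNA. Every Dia2 library was far above every control library, and the means were 83.8 ± 7.15 and 386 ± 13.2 CPM (n = 3 each, SD; log2 fold change 2.20 ± 0.06, SE; edgeR adjusted p = 1.79e-10). Among genes with a mean of at least 1 CPM, 99.5% had a smaller absolute log2 fold change. Igfbp4 lies on chromosome 11, 99041260 to 99052643.

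Igfbp7 encodes a more distant relative that binds IGFs weakly and is deposited in the matrix. It stood at 306, 318 and 303 CPM across the controls and at 403, 428 and 428 CPM after Dia2 siRNA. The groups did not overlap, and the rise was modest, from 309 ± 7.87 to 420 ± 14.6 CPM (n = 3 each, SD; log2 fold change 0.44 ± 0.05, SE; edgeR adjusted p = 6.31e-06). Its row, on chromosome 5 at 77349240 to 77408045, overlaps the end of Polr2b at 77310484 to 77349328, and reads in that short overlap cannot be told apart without a stated strand. The sum of the RPKM values of the 6 Igfbp genes was 233 to 265 in the control libraries and 410 to 471 in the Dia2 libraries. Within that sum Igfbp4 held 13.0% to 14.9% in the control and 33.9% to 35.8% in the Dia2 libraries, and Igfbp7 held 85.0% to 86.9% and 64.1% to 66.0%.

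Igfbp5 and Igfbp2 are neighbours on chromosome 1, at 72858065 to 72874865 and 72824480 to 72852471, with 5593 bases between them. Both were almost undetected in control cells. Igfbp5, which encodes a carrier that is abundant in bone matrix, had 10, 8 and 10 counts across the controls and 106, 200 and 164 counts after Dia2 siRNA. That is 0.110 ± 0.0302 against 1.75 ± 0.337 CPM (n = 3 each, SD; log2 fold change 4.02 ± 0.28, SE; edgeR adjusted p = 2.18e-07). Igfbp2, a carrier that also holds an integrin-binding motif, had 10, 4 and 6 counts across the controls and 40, 36 and 48 after Dia2 siRNA. The groups did not overlap for either gene, but the control levels lay close to the floor of 6 counts. Igfbp2 went from 0.0749 ± 0.0227 to 0.473 ± 0.0856 CPM (n = 3 each, SD; log2 fold change 2.62 ± 0.39, SE; edgeR adjusted p = 0.000114).

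The size of these 2 changes rests on few control fragments. Taking 2 counts as 1 fragment, the ratio of Dia2 to control was 16.7 for Igfbp5 (95% exact binomial interval 9.75 to 31.0, from 235 and 14 fragments). For Igfbp2 it was 6.17 (95% exact binomial interval 3.14 to 13.5, from 62 and 10 fragments). Without molecular identifiers, intervals and floors reflect counting error alone. Both genes passed the filter on low counts through the Dia2 group, with 1 and 0 control libraries above its limit. Igfbp2 could therefore hardly have been tested without differing, and Igfbp5 was close to that case. Igfbp6, also with 1 control library above the limit, passed the filter with 2 Dia2 libraries and was not called.

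Igfbp6 and Igfbp3 were at the edge of detection. Igfbp6, whose product prefers IGF2 over IGF1, had 10, 10 and 8 counts across the controls and 10, 20 and 4 after Dia2 siRNA, with overlapping groups (log2 fold change 0.25 ± 0.57, SE; edgeR adjusted p = 0.727). The fragment ratio of 1.21 had a 95% exact binomial interval of 0.560 to 2.65, which ignores the difference between libraries. A fall and a rise could not be told apart at this depth. Igfbp3, which encodes the main IGF carrier of serum, had 2, 2 and 0 counts in control replicates 1 to 3, then 0, 8 and 22 after Dia2 siRNA. All its control libraries and Dia2 replicate 1 lay under the floor, and 22 of its 30 Dia2 counts came from replicate 3. Summed over each group, that is 15 against 2 fragments (ratio 7.46, 95% exact binomial interval 1.73 to 67.2), which ignores the difference between the Dia2 libraries. Igfbp1, the neighbour of Igfbp3 on chromosome 11 at a distance of 3544 bases, had no count in any library.

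**Figure D2:**
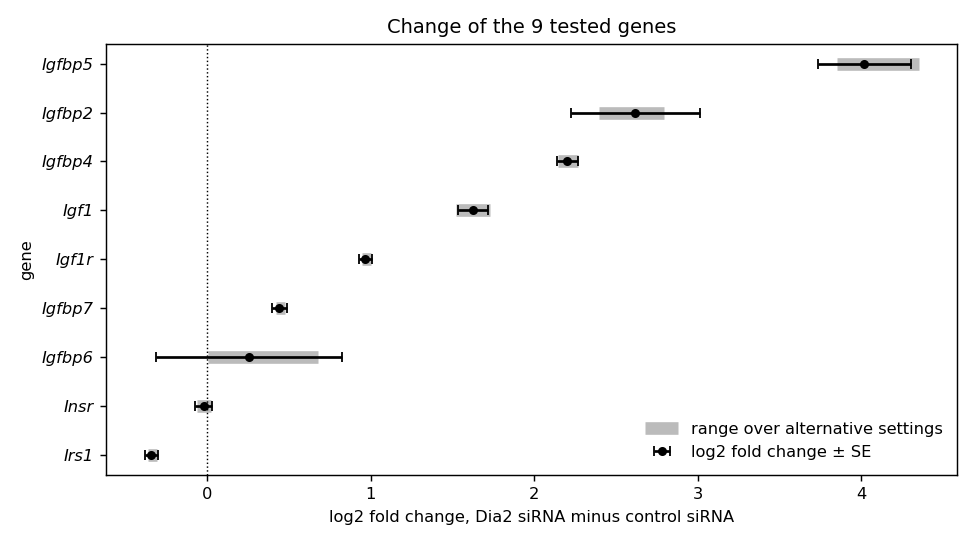
Log2 fold change (Dia2 siRNA minus control siRNA, horizontal axis) of the 9 tested genes; points and whiskers are the estimate and its SE, and grey bars the range over the alternative settings that tested the gene. Igfbp5 at 4.02 and Igfbp2 at 2.62 have the widest errors among those that passed, Igf1r at 0.97 a narrow one, and Irs1 at -0.34 is the 1 that fell.

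Of the 9 genes tested, 6 were higher and 1 lower, with median log2 fold change 0.97, against 59.2% called and a median of 0.01 over all 14151 genes. The share called, 7 of 9, is not far from that background. The 2 genes that passed the filter through the Dia2 group are part of that share and of the median of 0.97. The 6 genes with a mean of at least 1 CPM over all libraries were Igf1, Igf1r, Insr, Irs1, Igfbp4 and Igfbp7. Of these, 4 were higher and 1 lower, where 65.8% of all genes at that level were called. Their median log2 fold change was 0.70, against -0.02 over all genes at that level. Igf1, Igfbp4, Igfbp5 and Igfbp2 were called and at least 2-fold higher, where 5.82% of all tested genes were, and Igf1r came close at 1.95-fold. Of these, Igfbp5 and Igfbp2 are the 2 that passed the filter through the Dia2 group. The set was chosen with earlier results of these data known, so its shares are a description only. No gene of the set was at least 2-fold lower, where 2.76% of all tested genes were (8.58% in either direction). Among genes of at least 1 CPM, Igf1 and Igfbp4 changed at least 2-fold, where 5.88% did. All 7 called genes had groups that did not overlap, as 64.6% of all tested genes had (5 of the 6 abundant ones, against 70.2% at that level). Without the 2 libraries richest in Rn45s the counts were again 6 higher and 1 lower.

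Levels can be compared between genes only per length, and here the authors' RPKM values were used (read counts scaled by transcript length and library size). With control siRNA the order of mean RPKM was Igfbp7 at 218 ± 13.6, Igfbp4 at 34.7 ± 4.12, Irs1 at 19.5 ± 0.510, Igf1r at 6.25 ± 0.218, Insr at 4.69 ± 0.140 and Igf1 at 1.67 ± 0.176 (SD, n = 3). The other 4 genes had means of 0.00503 to 0.0720 RPKM. No 2 neighbours in this order overlapped over the 3 control libraries, although the order of the last 4 rests on 2 to 14 fragments each. With Dia2 siRNA, Igf1 at 5.01 ± 0.224 RPKM moved above Insr at 4.50 ± 0.261, and Igfbp4 reached 155 ± 10.3 beside Igfbp7 at 288 ± 21.8. In that group Igfbp2 and Igfbp5 overlapped, at 0.296 ± 0.0510 and 0.249 ± 0.0548 RPKM, as did Igfbp6 and Igfbp3. The RPKM of Igfbp4 was 16.6 to 26.1 times that of Igf1 in the control libraries and 29.4 to 31.8 times in the Dia2 libraries.

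**Figure D3:**
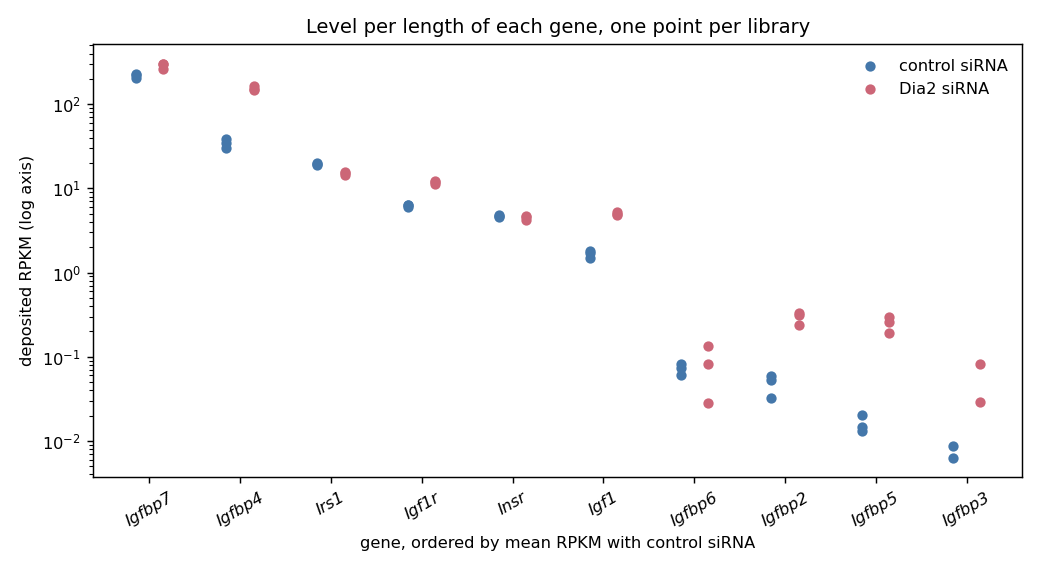
Deposited RPKM on a log axis for the 10 genes, ordered by mean RPKM with control siRNA; each point is a library, and 2 libraries with 0 RPKM for Igfbp3 are not drawn. Igfbp7 (218 RPKM) and Igfbp4 (34.7 RPKM) lie far above the other binding protein genes, which reach at most 0.333 RPKM in any library.

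The rest of the pathway was read from 5 lists of 54 genes, of which 49 were tested, 21 higher and 10 lower, with a median log2 fold change of 0.11. The share called, 31 of 49, was close to the 59.2% of all genes. Without the 2 libraries richest in Rn45s the counts were 24 and 12. The lists were chosen with earlier results of these data known, so their shares are a description only. Among other ligands, receptors and carriers, Igf2, the fetal ligand, rose from 3.61 ± 0.566 to 7.73 ± 0.326 CPM (n = 3 each, SD; log2 fold change 1.11 ± 0.11, SE; edgeR adjusted p = 4.28e-06). It stood at 3.08, 3.56 and 4.21 CPM across the controls and at 7.92, 7.91 and 7.35 CPM after Dia2 siRNA, so the groups were apart. Igf2r, which clears IGF2, did not pass, at 397 ± 11.2 and 422 ± 9.53 CPM (log2 fold change 0.09 ± 0.05, SE; edgeR adjusted p = 0.106). It passed with upper-quartile factors, among genes of at least 1 CPM and without both Rn45s-rich libraries, at adjusted p between 0.0288 and 0.0443 (0.0288 to 0.350 over all alternatives). Of the 6 genes in this list, Igfals did not pass either, and Insrr, Igfbp1 and Igfbpl1 were too low to test, with Insrr at 0 in every library.

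Proteases that cut IGF binding proteins, and the inhibitors of those proteases, counted 8 genes, of which 6 rose and 1 fell, where 29.3% of all tested genes were higher and 29.9% lower. Their median log2 fold change was 0.44, against 0.01 over all genes. As the list was chosen with earlier results known, these values are a description only. Pappa encodes PAPP-A, a protease known to cut IGFBP4. It stood at 12.3, 13.7 and 13.9 CPM across the controls and at 46.5, 45.7 and 44.6 CPM after Dia2 siRNA. The groups were far apart, with a rise of 3.43-fold (log2 fold change 1.78 ± 0.06, SE; edgeR adjusted p = 1.08e-09), so the transcripts of the carrier and of its protease were both higher in the same libraries. Its paralog Pappa2 fell at a log2 fold change of -0.55 ± 0.11 (SE), from 6.75 ± 0.659 to 4.59 ± 0.636 CPM (SD, n = 3 each). Adamts1, a metalloprotease, rose 1.57-fold, Adam12, which can cut IGFBP3 and IGFBP5, rose 1.40-fold, and the lysosomal protease gene Ctsd rose 1.35-fold. Stc2, whose product inhibits PAPP-A, rose 1.36-fold. The related Stc1 rose 1.23-fold (edgeR adjusted p = 0.0243), but did not pass when control replicate 1, control replicate 2, Dia2 replicate 1 or Dia2 replicate 2 was left out, at log2 fold changes of 0.22 to 0.30 and adjusted p of 0.0564 to 0.111 (7.63e-05 to 0.111 over all alternatives).

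Adaptors and inhibitors that act at the receptors moved both ways, with 4 of 11 tested genes higher and 4 lower (median log2 fold change -0.05), beside 29.3% and 29.9% of all genes. Grb10, an adaptor that restrains signalling by both receptors, stood at 108, 114 and 117 CPM across the controls and at 236, 236 and 233 CPM after Dia2 siRNA. The groups were far apart, with a rise of 2.08-fold (log2 fold change 1.06 ± 0.05, SE; edgeR adjusted p = 3.87e-09). Socs2, a suppressor of growth hormone signalling, stood at 46.1, 51.2 and 52.3 CPM across the controls and at 24.3, 24.5 and 23.4 CPM after Dia2 siRNA. It fell by 1.05 on the log2 scale (SE 0.06; edgeR adjusted p = 6.27e-08), with every Dia2 library below every control library. Irs2, the relative of Irs1, rose 1.66-fold, with means of 10.3 ± 0.717 and 17.2 ± 0.472 CPM (SD, n = 3 each), opposite in sign to Irs1, and Socs3 rose 1.30-fold. The other falls, of Grb2, Ptpn11 and Ptpn1, were small, at log2 fold changes of -0.25, -0.26 and -0.27. Irs3 and Irs4 were too low to test, with Irs4 at 0 in every library.

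Of 24 genes of the PI3 kinase and AKT arm 10 rose, 4 fell and 10 did not pass (median log2 fold change 0.11), beside the same shares of all genes. Pik3ip1, an inhibitor of the kinase, rose 6.84-fold, to 21.6 ± 0.394 CPM. Pdpk1, the kinase that phosphorylates AKT, rose 1.64-fold, and the regulatory subunit gene Pik3r1 rose 1.35-fold. Inppl1, which encodes a lipid phosphatase of the pathway, fell 1.32-fold. Akt1, which encodes an AKT kinase, did not pass (log2 fold change -0.14 ± 0.07, SE; edgeR adjusted p = 0.0894). It passed as lower without control replicate 3, at -0.23 (adjusted p = 9.89e-06), and without both Rn45s-rich libraries, at -0.22 (adjusted p = 1.47e-05), with a range of 9.89e-06 to 0.33 over all alternatives. Among the IGF2 mRNA binding proteins, Igf2bp2 fell from 102 ± 1.83 to 47.4 ± 0.977 CPM (n = 3 each, SD; log2 fold change -1.11 ± 0.04, SE; edgeR adjusted p = 2.33e-09), while Igf2bp1 and Igf2bp3 did not pass.

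**Figure D4:**
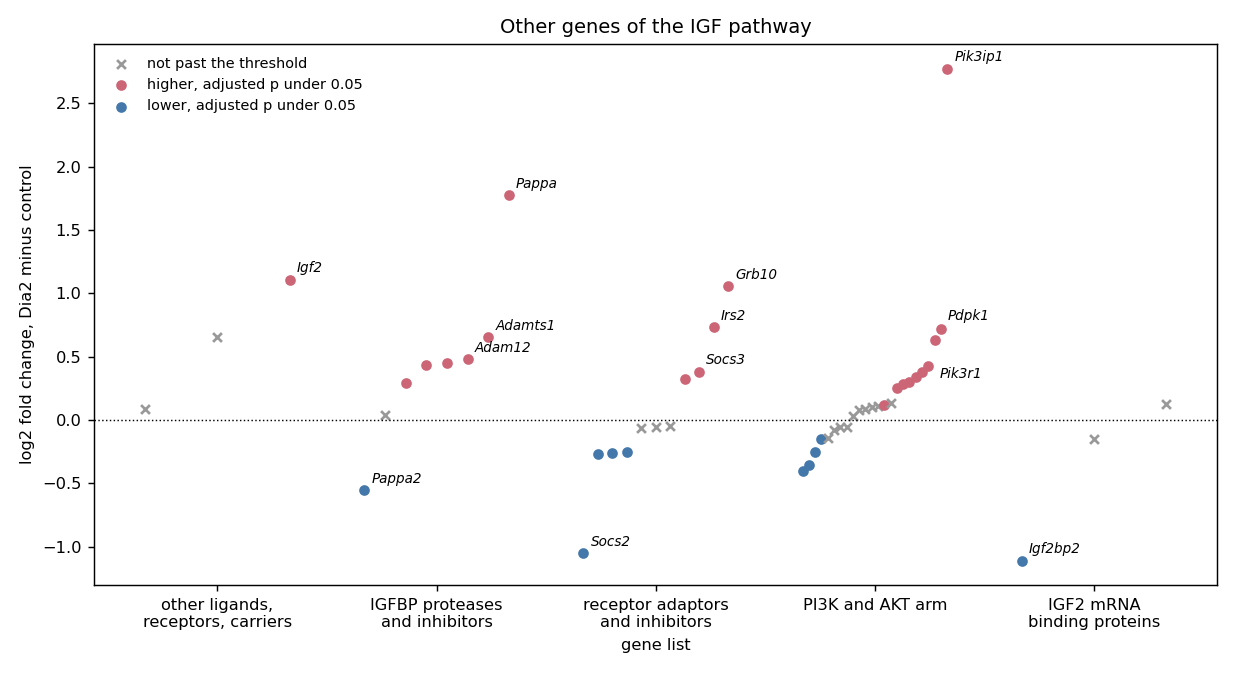
Log2 fold change (Dia2 minus control, vertical axis) of the 49 tested genes of 5 pathway lists, ordered by value within each list; filled points passed an adjusted p of 0.05 and crosses did not. The largest changes are those of Pik3ip1 (2.77), Pappa (1.78), Igf2 (1.11), Igf2bp2 (-1.11), Grb10 (1.06) and Socs2 (-1.05), while the rest of the PI3 kinase and AKT arm lies between -0.41 and 0.72.

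Sites in annotated 3′ ends (GENCODE M21, GRCm38) are shown because a transfected siRNA can lower transcripts that match bases 2 to 8 of its guide strand. For the stated Dia2 siRNA sequence, assumed here to be the strand opposite the guide, that match is AACTTAA. Igf1 and Igf1r were the 2 genes of the set that held it. The words TATGTGA, then ATGTGAA, and also GCAGTAC had been singled out by an earlier scan of these same fold changes, so they are a description only. Capitals mark the words.
Igf1, chr10:87931843-87931869, plus strand: ttccaagaagAACTTAAgatatagagt
Igf1r, chr7:68232354-68232380, plus strand: aaaaaataaaAACTTAAaaaaattaat
Socs2, chr10:95412482-95412508, minus strand: ggctcagtctAACTTAAaggtgtgaag
Irs1, chr1:82236176-82236202, minus strand: aggagtgaaaATGTGAAtcctttcctt
Irs1, chr1:82234620-82234646, minus strand: ctctcatttaTATGTGAgacaaagtgt
Socs2, chr10:95412558-95412585, minus strand: cgaatgcagcTATGTGAAagagaaccca
Igf2bp2, chr16:22059126-22059153, minus strand: acatcctggtTATGTGAAgaaaccatga
Grb10, chr11:11932487-11932513, minus strand: tttaccctctGCAGTACcctcagtcat
Grb10, chr11:11932201-11932227, minus strand: ctcacaatggATGTGAAcattggacag
Pik3ip1, chr11:3342825-3342851, plus strand: tgggaagagaGCAGTACtacttcctac
Holders of AACTTAA moved both ways: Igf1 and Igf1r were higher with the Dia2 siRNA, and Socs2, which holds it beside TATGTGAA, fell. Among pathway genes with AACTTAA, Pappa2 and Grb2 fell as well, and Igf2, Stc1, Stc2, Pik3r1, Foxo1 and Foxo3 rose. Of 12071 tested genes with an annotated 3′ UTR, 13.0% held AACTTAA, with a median log2 fold change of 0.05 against -0.01 in the others. Irs1, Insr and Igfbp6 held both TATGTGA and ATGTGAA, and of these Irs1 fell and the other 2 did not pass. Igf1 and Grb10 held ATGTGAA as well and rose. The genes with TATGTGA, 12.7% of all, had a median of -0.06, and those with ATGTGAA, 17.4%, a median of -0.09. None of the 10 genes held GCAGTAC, whose holders, 5.81% of all, had a median of 0.25. Genes with a word had longer 3′ UTRs, with medians of 2481 to 2686 bases against 985 to 1112 in those without. Igfbp2, Igfbp3, Igfbp4, Igfbp5 and Igfbp7 held none of the 4 words. The part of these words in the changes of single genes was not tested.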

How the data were processed

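The members and gene lists were chosen with earlier results of these data known. Per the file headers, the deposited table gives a gene count and an RPKM value per library, with a length column. The submitters' processing notes name bcl2fastq, HTSeq and TopHat2 2.0.6, with the human builds hg19 and GRCh37. The rows carry mouse symbols, and 99.3% of 20762 rows matched by symbol overlapped that gene in GRCm38.p6, so coordinates were read as GRCm38. Annotation, strandedness, multiple alignments: not given in the sources used here. Deposited counts were tested as they stand. Each RPKM value of the authors is a count over length and a library total, of which listed genes hold 82.6% to 85.8%, and served to compare levels between genes. Length was a multiple of 3 in 37.8% of rows, so it includes UTRs.

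Groups and replicate numbers came from sample titles. Genes were filtered with filterByExpr (minimum count 10, total 15), scaled with TMM and tested with edgeR 4.0.16 (glmQLFit and glmQLFTest, robust, R 4.3.3), Dia2 against control, with Benjamini-Hochberg adjustment over all genes. SE is the absolute log2 fold change divided by the square root of F. No 2 libraries of a group agreed within sampling noise (chi-square per degree of freedom of halved counts 6.70 to 85.2). That sum included the Rn45s row, whose share differed between libraries, so its upper end does not describe most genes. Named were all 10 members, Diaph3, up to 4 genes per pathway list with the largest change among those called with a mean of at least 1 CPM, and others to account for a list. Of the genes this rule names, 1 is not reported here. Alternatives were DESeq2 1.42.0 (size factors and Wald test), upper-quartile factors, library totals, other filters, limma-voom (limma 3.58.1), a replicate block and each library left out. Halved counts, no Rn45s row, and no Rn45s-rich libraries were added after seeing the data. Counting intervals are exact binomial at 95%.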

Additional observations from a re-analysis of the deposited data

How the results depend on the processing

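Of the 9 tested genes, 8 kept their direction and side of the threshold under every alternative that tested them (14 to 17 each), among them Igfbp4 at log2 fold changes of 2.15 to 2.26, Igf1 at 1.52 to 1.73, Igf1r at 0.95 to 1.00 and Irs1 at -0.36 to -0.31. Insr, which did not pass, changed sign: 0.0133 with upper-quartile factors, 0.0229 without both Rn45s-rich libraries, and -0.0640 to 0.0103 with each library left out. Counts stayed at 6 higher and 1 lower in each alternative but 1, since a minimum mean of 1 CPM removed Igfbp2 and Igfbp5 and left 4 and 1. Igfbp3 was tested without the filter and by DESeq2, and passed in neither (log2 fold changes 2.75 and 2.87, adjusted p = 0.0753 and 0.0824). Over all genes, 7343 to 9193 passed with each library left out, against 8380. With the replicate block 7772 genes passed and the set's counts were again 6 and 1. Deviations of same-numbered libraries correlated at -0.21, -0.07 and -0.27 for numbers 1, 2 and 3. No library correlated best with its own number. Each deviation is taken from the mean of its own 3 libraries, so this cannot show whether same-numbered libraries shared a culture or day. Depth limits Igfbp2, Igfbp3, Igfbp5 and Igfbp6, with 2 to 14 control fragments each.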
